A study of Mus musculus with 10 samples.

Results

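Windows of lung DNA that lay more than 10 kb from every gene start site and were almost fully methylated in saline mice were examined for loss of methylation after ovalbumin (OVA) and after treatment with the seed extract DSE. Methyl-seq, a capture of selected genomic regions followed by bisulfite conversion, had been carried out on lung DNA of 10 female BALB/c mice aged 8 weeks. Saline mice (n = 3) received saline only. OVA-induced mice (n = 3) were sensitized by intraperitoneal injection of 50 µg of OVA in alum, challenged intranasally with 25 µg of OVA, and given vehicle. DSE-treated mice (n = 4, called Herb in the sample names) received the same OVA regimen and 200 mg/kg of DSE, an extract of Descurainia sophia seeds, by mouth. The labels name no genetic alteration in any of the 10 mice.

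The members were chosen by their measured values. A window spans 1000 bp and starts 500 bp after the one before it, and its methylation is the percentage of CpG calls read as methylated. Of 446336 windows, 421759 had at least 20 calls in all 10 mice, and 224498 of these lay on chromosomes 1 to 19 more than 10 kb from every RefSeq start site of GRCm38 (mm10). Among these distal windows, 43022 reached 85% methylation in the pooled calls of the 3 saline mice and 181476 did not. Because windows overlap, the 43022 members merged into 22708 regions, and their nearest start sites belonged to 9947 genes. Because the saline calls selected the windows, every comparison with saline mice below is a description. The OVA and DSE mice entered the selection only through the minimum of 20 calls, not through their methylation.

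CpG methylation is written by DNA methyltransferases and kept through cell division, and it is removed by failure of that copying or by oxidation through TET enzymes. Most CpGs outside promoters and enhancers of mammalian tissue are methylated, and distal elements bound by transcription factors in a given cell type are typically where methylation is low in that cell type. In allergic lung, T cells, eosinophils and other leukocytes enter the tissue, so the DNA of a whole lung is a changing mixture of cell types. With bulk DNA, a change in the share of a cell type and a change of methylation within cells cannot be told apart.

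The following stretches of GRCm38 come from windows whose methylation differed between groups. Methylation was counted per window, so which CpGs of a stretch changed is not known. The first 4 come from windows with the largest falls in OVA, the next 3 (Septin9, Tet2 and Fzd7) from falling windows with many calls, and the last pair from windows that differed between DSE and OVA. Septin9, Tet2, Fzd7, Plbd1 and Pigk were added after their values had been seen. Each is the 300 bases of the window that hold the most CpGs, on the + strand from 5′ to 3′, with every CpG in capitals and named for the gene with the nearest start site. The number of CpGs in a stretch ranged from 3 at Vtcn1 to 10 at Septin9 and Pigk.
Lancl2 (chr6:57744652-57744951): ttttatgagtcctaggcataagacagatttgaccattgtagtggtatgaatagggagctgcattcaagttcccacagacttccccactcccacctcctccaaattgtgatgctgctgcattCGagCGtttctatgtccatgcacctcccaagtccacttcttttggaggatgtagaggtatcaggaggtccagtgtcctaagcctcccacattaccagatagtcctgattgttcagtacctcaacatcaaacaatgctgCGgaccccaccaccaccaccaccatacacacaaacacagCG
Sgms1 (chr19:32266426-32266725): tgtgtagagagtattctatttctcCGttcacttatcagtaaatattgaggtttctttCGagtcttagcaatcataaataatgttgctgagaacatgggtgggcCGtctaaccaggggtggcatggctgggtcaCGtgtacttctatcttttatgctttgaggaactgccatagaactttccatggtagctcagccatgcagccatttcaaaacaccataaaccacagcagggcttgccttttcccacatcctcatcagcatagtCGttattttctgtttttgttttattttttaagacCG
Vtcn1 (chr3:100791501-100791800): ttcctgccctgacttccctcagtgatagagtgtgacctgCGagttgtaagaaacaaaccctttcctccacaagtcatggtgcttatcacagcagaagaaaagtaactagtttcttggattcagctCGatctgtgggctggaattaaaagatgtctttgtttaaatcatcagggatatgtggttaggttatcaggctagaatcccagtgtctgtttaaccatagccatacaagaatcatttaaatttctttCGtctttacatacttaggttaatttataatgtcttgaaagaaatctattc
Gm16555 (chr17:49967184-49967483): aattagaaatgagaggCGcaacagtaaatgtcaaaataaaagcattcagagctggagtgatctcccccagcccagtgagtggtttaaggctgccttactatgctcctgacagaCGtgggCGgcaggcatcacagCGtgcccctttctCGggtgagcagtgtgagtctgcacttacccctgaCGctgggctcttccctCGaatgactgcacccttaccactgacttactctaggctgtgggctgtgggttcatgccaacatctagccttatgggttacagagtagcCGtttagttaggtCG
Septin9 (chr11:117250014-117250313): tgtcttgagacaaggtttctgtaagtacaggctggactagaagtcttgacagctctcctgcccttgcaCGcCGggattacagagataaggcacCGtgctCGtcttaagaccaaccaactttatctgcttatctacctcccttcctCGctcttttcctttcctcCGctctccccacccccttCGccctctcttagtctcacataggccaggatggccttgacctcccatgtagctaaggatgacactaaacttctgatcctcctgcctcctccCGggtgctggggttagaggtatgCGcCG
Tet2 (chr3:133462815-133463114): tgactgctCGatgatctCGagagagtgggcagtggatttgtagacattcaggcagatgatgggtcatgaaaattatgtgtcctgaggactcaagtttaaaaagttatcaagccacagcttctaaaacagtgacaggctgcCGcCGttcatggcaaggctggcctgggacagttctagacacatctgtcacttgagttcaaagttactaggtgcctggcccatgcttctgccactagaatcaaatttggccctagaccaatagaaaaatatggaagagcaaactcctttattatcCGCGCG
Fzd7 (chr1:59496150-59496449): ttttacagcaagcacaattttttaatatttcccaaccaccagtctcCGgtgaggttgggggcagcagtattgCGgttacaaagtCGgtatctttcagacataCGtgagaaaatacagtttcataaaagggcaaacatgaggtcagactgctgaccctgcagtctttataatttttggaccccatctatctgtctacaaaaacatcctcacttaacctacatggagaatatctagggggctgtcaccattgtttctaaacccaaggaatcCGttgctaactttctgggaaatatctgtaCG
Plbd1 (chr6:136644535-136644834): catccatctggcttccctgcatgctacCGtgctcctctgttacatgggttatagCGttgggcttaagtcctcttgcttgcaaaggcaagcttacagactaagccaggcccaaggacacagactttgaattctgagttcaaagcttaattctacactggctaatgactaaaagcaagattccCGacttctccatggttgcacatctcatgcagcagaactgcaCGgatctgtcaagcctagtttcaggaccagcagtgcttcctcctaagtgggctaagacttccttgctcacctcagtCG
Pigk (chr3:152701019-152701318): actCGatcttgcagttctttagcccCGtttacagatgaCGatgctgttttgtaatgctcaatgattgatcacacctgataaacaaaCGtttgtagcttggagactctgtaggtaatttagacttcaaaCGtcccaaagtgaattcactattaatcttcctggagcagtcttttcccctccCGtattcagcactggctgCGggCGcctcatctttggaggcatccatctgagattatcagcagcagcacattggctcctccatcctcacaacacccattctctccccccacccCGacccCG

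The 43022 members had a median of 12 CpGs, a GC content of 45.7% and 21.0% of bases in annotated repeats, and a median distance of 37947 bp from the window midpoint to the nearest start site. Exons held 8374 of them (19.5%), introns 15595 (36.2%) and intergenic DNA 19053 (44.3%). The distal windows under 85% had the same median of 12 CpGs, with 16.6% of bases in repeats and 11.5% of windows in exons. Members were less deeply covered, with a median of 242 calls per mouse against 366.5 in the other distal windows. At the selection threshold, 4091 distal windows lay from 85% to 86% and 3971 from 84% to 85%. Windows just inside were nearest to Ikbke and Grik2, and the 3 just outside were nearest to Rnf144b, Triobp and Atg9b, all with a pooled saline methylation of 85% after rounding. The minimum of 20 calls leaves a wide counting error, since 17 of 20 calls (85%) has a 95% Wilson interval of 64.0% to 94.8%, whereas 170 of 200 calls has one of 79.4% to 89.3%. These intervals cover counting error only, and calls from 1 read are not independent.

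Calls summed over all windows ranged from 306656737 to 410836272 per mouse, and calls shared by overlapping windows count more than once in this sum. The median per member window ranged from 207 to 250 in saline, 209 to 235 in OVA and 245 to 313 in DSE mice. Cell types could not be checked in full, since 7 of the 10 marker start sites looked up (among them Sftpb, Scgb1a1, Cdh5, Pecam1, Cd3e and Epx) lay in no window analysed here. Of the other 3, the start site of Ptprc, the pan-leukocyte marker CD45, was methylated at 59.0% to 65.1% in saline, 44.3% to 48.9% in OVA and 41.1% to 46.6% in DSE mice, and its saline mice did not overlap the others. The epithelial markers moved less, with 67.7%, 65.7% and 65.3% pooled at Sftpc and 15.6%, 17.9% and 21.6% at Epcam in saline, OVA and DSE mice. At Epcam the saline mice (14.8% to 16.2%) did not overlap the DSE mice (20.9% to 22.6%), and the OVA mice (14.1% to 22.7%) overlapped both. At Sftpc the groups overlapped.

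Averaged over all members, methylation was close to constant between groups. The means per mouse were 90.5%, 90.4% and 90.4% in saline, 90%, 90% and 90.2% in OVA, and 88.8%, 89.8%, 89.5% and 89.5% in DSE mice. These gave 90.4% ± 0.0836 (SD, n = 3) in saline, 90.1% ± 0.129 (SD, n = 3) in OVA and 89.4% ± 0.391 (SD, n = 4) in DSE. With pooled calls in place of the mean over windows, the order of saline and OVA turned, at 90.1% and 90.2%, while DSE stayed lowest at 89.5%. The distal windows under 85% lay at 52.1% ± 0.389 in saline, 54.1% ± 0.616 in OVA and 53.9% ± 0.595 in DSE (SD, same numbers of mice). In single saline mice, 1.32% to 1.95% of members had every call methylated. The share of members still at 85% or more was 89.3% to 91.1% in single saline mice, 85.7% to 86.8% in OVA mice and 80.3% to 85.3% in DSE mice. Fewer than 12 members fell under 50% in any mouse, and 186 to 264 fell under 70% in each OVA or DSE mouse, against 5 to 10 in the saline mice that had selected them.

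**Figure D1:**
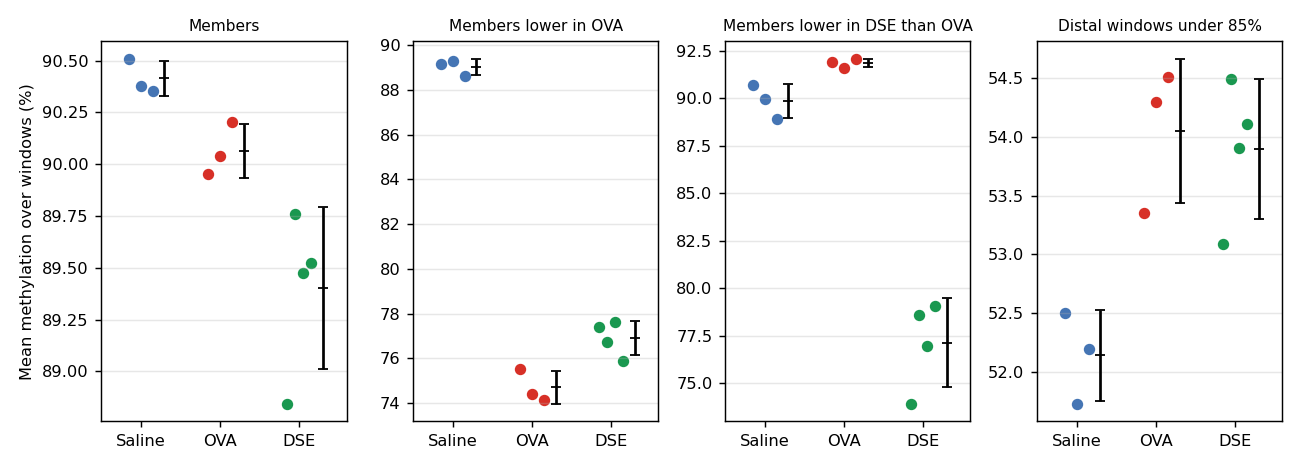
Mean methylation (percent of CpG calls methylated, averaged over windows) per mouse in 4 sets of distal windows, with 1 point per mouse and the group mean ± SD in black (saline n = 3, OVA n = 3, DSE n = 4); each axis has its own range and does not start at 0. Over all members the groups lay within 90.5% and 88.8%, while the 519 windows lower in OVA lay at 89.0% in saline, 74.7% in OVA and 76.9% in DSE mice; the middle pair of sets was chosen on the differences they show.

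A window was called when a likelihood ratio test on the pooled calls gave a Benjamini-Hochberg adjusted p under 0.01 over all windows tested and the pooled methylation differed by at least 10 percentage points. OVA vs. saline called 519 members lower (hypo methylated in OVA), or 1.21%, and 18 higher. Over all 436201 windows tested the same thresholds called 2.56% lower and 4.75% higher. The selection at 85% fixes most of this direction, so nothing is read from the difference. The 519 windows formed 367 regions nearest to 352 genes, with a median difference of -13.2 percentage points, and 51 of them fell by at least 20. In 438 of the 519 windows every OVA mouse lay below every saline mouse. Over all windows tested, this held for 9959 of the 11167 windows called lower (2.28% of those tested). DSE vs. saline, which shares the saline mice, called 788 members lower and 4 higher, where 3.07% and 4.95% of all windows were called. In limma on M-values, a test that uses the spread between mice, no member reached an adjusted p of 0.05 in OVA vs. saline. Nor did any of the 421759 windows covered in all mice, so this is no trait of the members. At an unadjusted p under 0.05 in limma, 2955 members were lower and 1782 higher, with no share over all windows computed.

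The number of losses moved with the mice used for selection. Windows chosen at 85% or more in OVA mice in place of saline mice numbered 45874, and 412 of them (0.898%) were lower in saline, where 519 (1.21%) had been lower in OVA with the selection on saline. When the pooled calls of all 10 mice chose the windows, 43080 were kept, of which 80 (0.186%) were lower and 87 (0.202%) higher in OVA. In OVA vs. saline the excess of losses over gains was thus present with the selection on saline and absent with the selection on all 10 mice. The pool of all 10 is not neutral either, since its 3 OVA and 4 DSE mice outnumber the 3 saline mice. The 519 windows stood at 74.7% in OVA and 76.9% in DSE mice, so a loss shared by these groups tends to drop out of that selection. Nothing is read from its balance. The exchange was less even for the DSE mice. The pools also differed in size, with 4 DSE mice against 3 in each other group. The median per member window was 245 to 313 calls in DSE, 207 to 250 in saline and 209 to 235 in OVA mice. The part of this in the counts that follow was not tested. With the selection on saline 788 windows (1.83%) were lower in DSE, whereas 202 of the 42690 windows chosen on DSE (0.473%) were lower in saline. With the selection on OVA 346 windows (0.754%) were lower in DSE, whereas 98 of those chosen on DSE (0.23%) were lower in OVA. Depth moved with the calls as well. Among members with a median of 20 to 50 calls per mouse, 2.24% were lower in OVA, and the share was 2.16%, 1.58%, 0.818% and 0.589% in the bins from 50, 100, 200 and 400 calls upwards. The part of counting error in the shallow losses was not tested. With at least 200 calls in every mouse, a limit set after the data had been seen, 19693 members remained, of which 120 in 87 regions (0.609%) were lower and 0 higher in OVA. All 120 had every OVA mouse below every saline mouse. The shares over all windows at this depth were not computed, so nothing particular to the members is read from these counts.

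**Figure D2:**
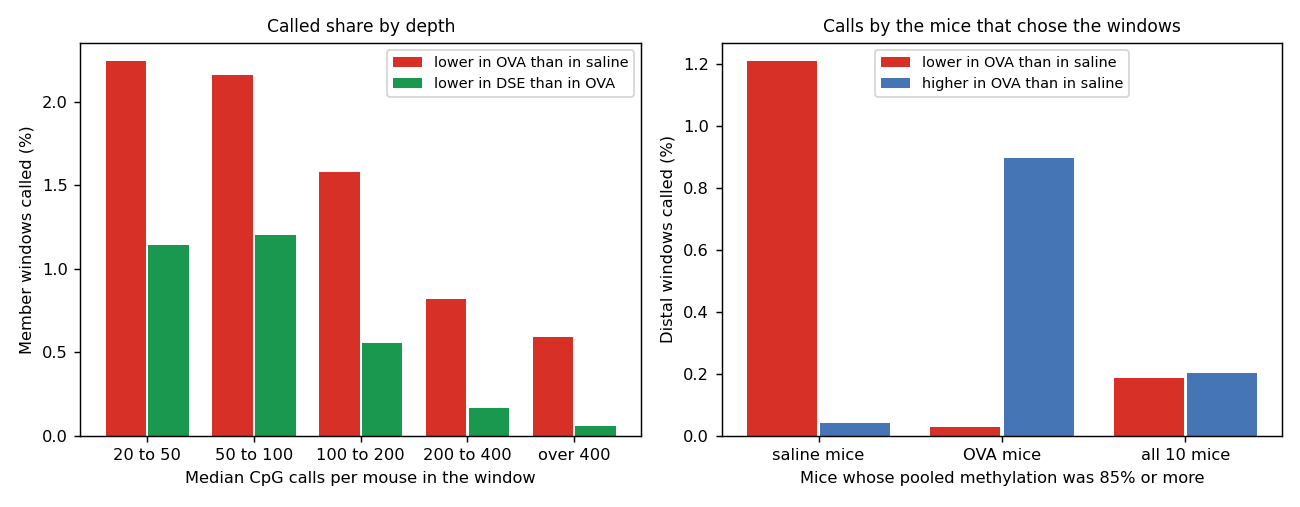
Left, percent of member windows called lower in OVA than in saline (red) and lower in DSE than in OVA (green) by the median number of CpG calls per mouse; right, percent of distal windows called lower (red) or higher (blue) in OVA than in saline when the windows were chosen at 85% or more in saline mice, OVA mice or all 10 mice. The left bars fall from 2.24% to 0.589% in red and from 1.14% to 0.0602% in green, and on the right the red and blue bars exchange places between the first pair and the second and are 0.186% and 0.202% in the last.

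By position, 0.633% of exonic, 1.62% of intronic and 1.12% of intergenic members were lower in OVA. Median depth differed between these classes, at 373.25 calls per mouse in exons, 238.5 in introns and 209.0 in intergenic DNA. Windows with under 5 CpGs were lower in 2.27% of cases, and those with 20 to 40 CpGs in 0.458%. None of the 577 members with 40 or more CpGs was lower. Median depth rose along these bins, at 99 calls per mouse under 5 CpGs, 618.5 at 20 to 40 and 1833 at 40 or more. Its part in these shares was not tested. The share was 1.38% at 10 to 20 kb from a start site and 1.05% beyond 100 kb. Across the 19 autosomes it ranged from 0.830% on chromosome 12 to 1.78% on chromosome 14.

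The fall was largest downstream of Lancl2, which encodes a LanC-like protein. That intergenic window (chr6:57744501-57745500) had a methylation of 88.2%, 85.3% and 87.1% in saline, 53.1%, 51.7% and 51.7% in OVA, and 69.8%, 60.0%, 72.1% and 65.0% in DSE mice. The 3 OVA mice lay together and far below the saline mice, with the DSE mice between them, on only 29 to 63 calls per mouse. Downstream of Gnrh1, the precursor of gonadotropin-releasing hormone, and inside an intron of Dock5, a guanine nucleotide exchange factor for Rac, 3 overlapping windows over 2000 bp were lower. In the lowest of them the saline mice had 96.6%, 84% and 80%, the OVA mice 60.0%, 45.7% and 60.4%, and the DSE mice 55.6% to 71.7%. Both groups of OVA-exposed mice lay below all saline mice there.

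Sgms1, which encodes a sphingomyelin synthase of the Golgi, was the nearest gene of 4 losing regions with 8 windows, all within the gene, and only Zfand3 had as many regions. The widest gap was in the intronic window chr19:32266001-32267000, with 85.7%, 87.0% and 82.4% in saline, 47.6%, 59.3% and 58.8% in OVA, and 39.0% to 64.8% in DSE mice at 27 to 85 calls. A second intronic window of Sgms1, chr19:32221501-32222500, had 804 to 1110 calls per mouse. There the saline mice had 87.6%, 85.8% and 86.4%, the OVA mice 75.6%, 72.1% and 71.6%, and the DSE mice 76.3%, 78.7%, 73.6% and 70.8%. The groups were thus as separate in the deep window as in the shallow one, with a smaller gap. Of the 352 genes, 341 had 1 losing region and 9 had 2.

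Upstream of Vtcn1, which encodes an inhibitory ligand of T cells of the B7 family, the intergenic window chr3:100791501-100792500 went from 87.0%, 92.7% and 80.2% in saline to 45.7%, 49.0% and 71.4% in OVA, with 61.8% to 72.0% in DSE mice. Near the predicted gene Gm16555 (chr17:49967001-49968000) the saline mice ranged from 78.4% to 100% and the OVA mice from 58.0% to 63.3%. The spread of the saline mice at Gm16555 was wider than that of the OVA mice. An intronic window of Septin9, which encodes a filament-forming GTP-binding protein, had 190 to 318 calls per mouse and stands out for its depth among the 15 windows named for the largest falls. At chr11:117250001-117251000 it had 92.4%, 94.7% and 93.4% in saline, 66.8%, 66.6% and 70.9% in OVA, and 81.5%, 67.9%, 83.6% and 76.7% in DSE mice. The OVA mice differed from each other by less than 5 percentage points, and the DSE mice by more than 15.

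The remaining 9 windows of the 15 differed by -23.1 to -28.5 percentage points. They were nearest to Cpt1a, which encodes the carnitine palmitoyltransferase that admits long-chain fatty acids into mitochondria, Commd9 (within an intron of Ldlrad3), Prb1, Ndufb4, a subunit of the first complex of the respiratory chain, Tpp2, a peptidase, Hivep1, a zinc finger protein that binds enhancers, Slc30a5, a zinc transporter, 1700025N23Rik (within an intron of Tbxas1, the thromboxane synthase gene) and Prlhr. At Hivep1 the saline mice had 86.4%, 88.6% and 89.8% and the OVA mice 67.2%, 60.8% and 64.2%. At Cpt1a 1 saline mouse had 78.6% and the others 100%, against 59.7% to 64.4% in OVA mice. In limma on the same windows the smallest adjusted p of the 15 was 0.103, and their counts of calls were as low as 20 in a mouse.

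Among losses with at least 200 calls in every mouse, the window with the largest fall lay 14353 bp downstream of the start site of Fzd7, a Wnt receptor. At chr1:59496001-59497000 the saline mice had 87.4%, 88.8% and 82.4%, the OVA mice 67.0%, 62.7% and 63.6%, and the DSE mice 71.9%, 66.2%, 72.3% and 56.9%, on 371 to 676 calls. An intronic window of Pstpip2, an adaptor of the actin cytoskeleton in myeloid cells, had 87.3% to 89.9% in saline, 63.7% to 69.9% in OVA and 61.9% to 72.7% in DSE mice. Windows nearest to Cnih3 and Rgs2, a regulator of G-protein signalling, differed by -20.1 and -18.5 percentage points, and a window in an exon of Bbs9 by -18.5. In an intron of Klhl6, a Kelch-like gene of B lymphocytes, the saline mice had 86.9%, 83.9% and 84.6% and the OVA mice 65.6%, 71.2% and 65.9% on 745 to 1086 calls. The deepest of these windows, in an intron of the kinase gene Lrrk1 and nearest to Mir7057, had 1188 to 1826 calls per mouse. Its saline mice had 88.1%, 89.2% and 82.3%, its OVA mice 73.3%, 69.7% and 64.1%, and its DSE mice 64.9% to 69.2%. In each of these deep windows the DSE mice lay below every saline mouse, at the level of the OVA mice or with an overlap of their ranges.

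**Figure D3:**
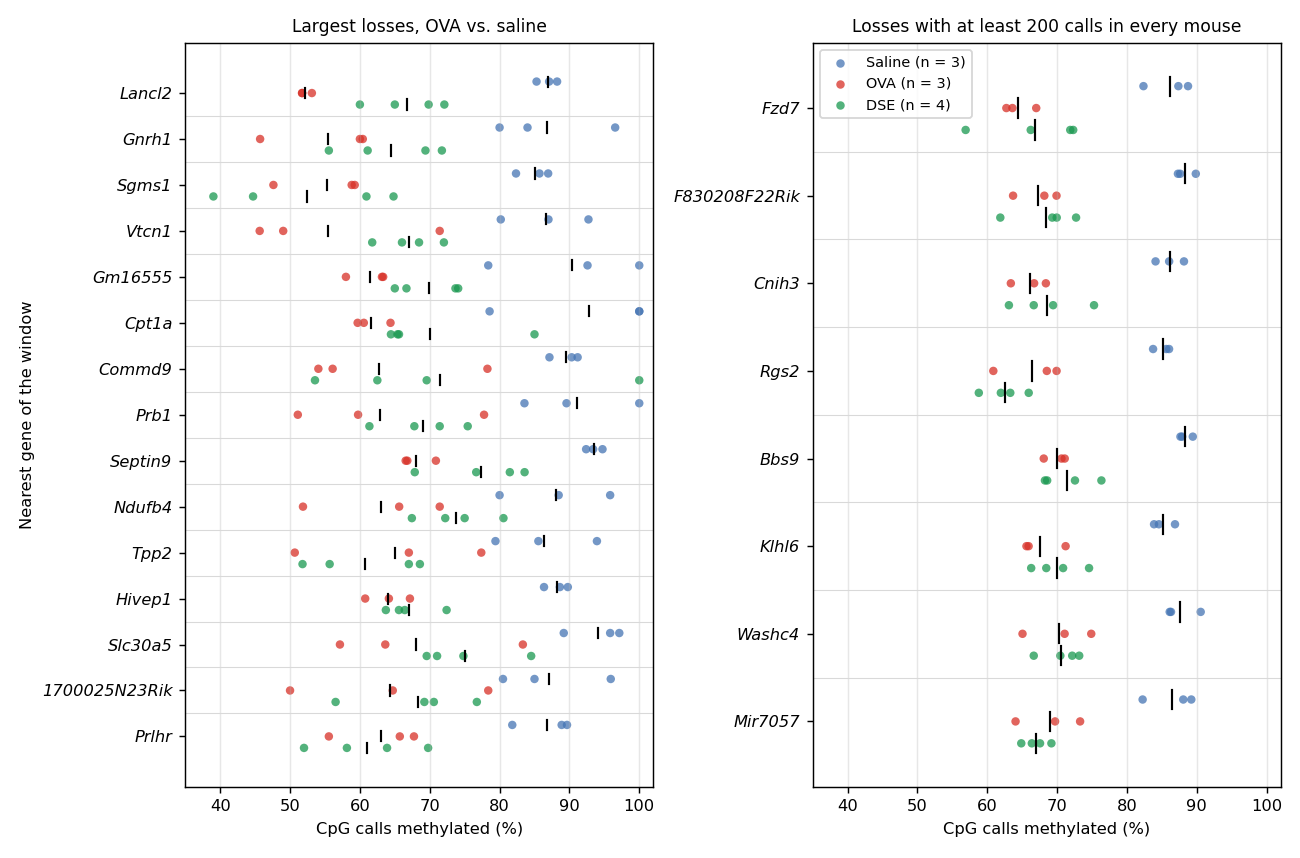
Methylation per mouse (percent of CpG calls methylated) in the 15 windows with the largest fall in OVA vs. saline, 1 per gene (left), and in 8 windows that fell with at least 200 calls in every mouse (right), with 1 point per mouse and a black line at the group mean; rows carry the gene of the nearest start site. The windows were chosen for the gap between the blue saline and red OVA points, which comes to -34.6 percentage points of pooled methylation at Lancl2 and -17.1 at Mir7057, and the green DSE points lie below all blue points in every row on the right.

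Losses that spanned the most overlapping or adjoining windows, with 3 each, lay at Gnrh1, Arf4, Atf1 and Osbpl11. In an intron of Atf1, a CREB family transcription factor, the lowest window (chr15:100249001-100250000) had 89.5%, 89.1% and 91.1% in saline, 70.9%, 80.9% and 72.8% in OVA and 75.5% to 77.7% in DSE mice, within a region of 2500 bp. Upstream of Osbpl11, an oxysterol-binding protein gene, chr16:33158501-33159500 had 84.9%, 86.5% and 86.8% in saline, 78.4%, 76.0% and 67.4% in OVA, and 75.3% to 78.6% in DSE mice on 743 to 1128 calls. At Atf1 and Osbpl11 the saline mice did not overlap the other groups. Near Arf4, in an intron of Dennd6a, the lowest window (chr14:26609501-26610500) had 73.7%, 89.3% and 89.9% in saline, 77.8%, 72.5% and 54.7% in OVA and 73.4% to 86.2% in DSE mice, and the groups overlapped. Neighbouring windows are not independent, since they share the calls of 500 bp.

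Among 9 lists of genes of the lung, immune cells and methylation enzymes, the members near listed genes were called lower in OVA in few cases. None of the 54 windows near Th2 and alarmin genes, such as Il4 or Il33, none of 72 near myeloid and eosinophil genes and none of 87 near lung epithelial genes passed. In T and NK cell genes 3 of 139 windows passed, at Prkcq and Ikzf2. In B and plasma cell genes 2 of 72 passed, at Foxp1, and in pan-leukocyte and haematopoietic factor genes 3 of 108, at Ikzf1 and Gfi1. Endothelial genes had 2 of 114, at Car4, smooth muscle and fibroblast genes 1 of 118, at Smad3, and DNA methylation enzymes and readers 2 of 72, at Tet2. No window of any list was higher. These counts stand beside 1.21% of all members and 2.56% of all windows tested, and in lists of this size a count of 0 is no result about the list. The median difference of OVA from saline ran from -1.15 percentage points in the methylation enzyme list to 0.35 in B and plasma cell genes, beside 0.0594 over all members. The lists were chosen with earlier results of these data known, and no list was tested against another.

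Tet2, which oxidises methylated cytosine, was the nearest gene of a window with little spread between mice. It lies 81390 bp downstream of the Tet2 start site in intergenic DNA (chr3:133462501-133463500) and had 94.0%, 93.8% and 89.1% in saline, 76.8%, 74.9% and 76.7% in OVA, and 77.2%, 76.1%, 77.3% and 76.9% in DSE mice, on 320 to 451 calls. The 7 OVA-exposed mice lay within 3 percentage points of each other. In an intron of Ikzf1, the Ikaros gene of lymphoid development, the saline mice had 89.2%, 75.3% and 86.9% and the OVA mice 77.2%, 69.4% and 54.1%, so that these groups overlapped. An intronic window of Smad3, the transducer of TGF-beta signals, had 97.6%, 89.7% and 86.4% in saline, 72.4%, 73.2% and 78.5% in OVA, and 72.3% to 86% in DSE mice. Near Foxp1 the saline mice were methylated at every call (39 to 77 calls per mouse), while the OVA mice had 84.8%, 95% and 85.7% and the DSE mice 93.8% to 99.1%. At Prkcq, a kinase of T cell receptor signalling, the OVA mice had 85.7%, 70.2% and 67.9% and the saline mice 88.5%, 95% and 87.7%. The start site of the leukocyte marker Ptprc moved the same way between saline and OVA mice, as given above, and its part in these losses was not tested.

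A window at 90% or more cannot rise by more than 10 percentage points, which limits the gains that could be called. Of the 18 windows higher in OVA, 10 had every OVA mouse above every saline mouse. The share of all windows that met this was not computed, so nothing is read from the count. The largest gains were near Lilr4b, a leukocyte immunoglobulin-like receptor, Iftap and Fbxl4, at 12.5, 12.1 and 10.8 percentage points. At Lilr4b 1 saline mouse had 64.3% on 28 calls and the others 92.7% and 94.7%, a wider spread than in the OVA mice. The 18 gains became 42 without OVA replicate 1 and 32 without OVA replicate 2. At Iftap the saline mice had 91.4%, 78.6% and 87.0% and the OVA mice 100%, 100% and 97.1%.

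Short motifs were counted on both strands in the 1000 bp of each window, as a description. The RUNX motif TGTGGT was found in 66.7% of the 519 windows lower in OVA, 57.6% of members and 54.5% of all windows. For the AP-1 motif TGANTCA these shares were 33.5%, 26.3% and 25.7%, for the PU.1 motif GAGGAA 66.3%, 60.4% and 64.0%, and for the GATA motif AGATAA 49.7%, 42.6% and 41.6%. The FOX motif TGTTTAC was in 11.6%, 12.3% and 13.1%, and the T-box motif GGTGTGA in 13.3%, 14.3% and 14.0%. GAGGAA and the other motifs can overlap each other, and windows share 500 bp with their neighbours. Among the 189 members lower in DSE than in OVA, RUNX stood at 51.9%, AP-1 at 31.7%, PU.1 at 54.5%, GATA at 52.9%, FOX at 15.9% and T-box at 8.47%. In the distal windows under 85%, RUNX stood at 56.1%, AP-1 at 28.1%, PU.1 at 65.5%, GATA at 44.9%, FOX at 14.7% and T-box at 14.3%.

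DSE vs. OVA, whose methylation values the 85% threshold did not use, asks whether treatment of OVA-induced mice changed these windows. It called 189 members (0.439%) lower in DSE in 143 regions and 43 (0.1%) higher in 33 regions, where 0.725% of all 437460 windows tested were called lower and 0.898% higher. Both shares lay under those of all windows, and a rise of 10 percentage points was possible only in the 19803 members (46.0%) at 90% or less in OVA. The median difference was -0.576 percentage points, beside -0.147 in the other distal windows and -0.0318 in all windows covered in all mice. In DSE 62.7% of members were lower, with no such share over all windows computed. Without OVA replicate 1, 2 or 3 the 43 gains became 66, 68 and 74, and a minimum of 50 calls left 90 lower and 16 higher windows. With no overlap of DSE and OVA mice, 143 of the 189 lower and 24 of the 43 higher windows remained. Over all windows tested, 2248 of 3171 lower and 3086 of 3929 higher windows remained (0.514% and 0.705% of those tested). In limma, 19 members were lower and 4 higher at an adjusted p under 0.05 (0.0165% and 0.0725% of all windows tested), and 0 at 0.01. At an unadjusted p under 0.05 in limma, 2994 members were lower and 1175 higher. No share over all windows was computed for these, so nothing is read from them. The members past both limma and the main thresholds numbered 14 lower in 13 regions and 4 higher in 3 regions. With 3 mice against 4 an exact permutation test of a single window cannot go below 0.0571, two-sided, and the windows without overlap all stood at this value.

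The largest difference of DSE from OVA was -54.9 percentage points, in a window over an exon of Nt5c2, a cytosolic nucleotidase gene (chr19:46896501-46897500). The DSE mice had 29.7%, 32.7%, 20.5% and 41.9%, the OVA mice 100%, 73.5% and 83.3%, and the saline mice 73.2%, 94.4% and 97.1%. The likelihood ratio test gave an adjusted p of 2.9e-23 and limma one of 0.145. In an intron of Plbd1, a phospholipase B-like gene, chr6:136644001-136645000 had 31.4%, 58.0%, 33.0% and 64.8% in DSE, 95.7%, 100% and 96.3% in OVA, and 98.3%, 95.6% and 80.3% in saline mice. The difference of -54.2 percentage points passed both tests, with adjusted p-values of 2.7e-30 by the likelihood ratio test and 0.0463 by limma. At Nt5c2 and Plbd1 the DSE mice stood apart from all 6 others.

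An intronic window of Smyd3, a SET and MYND domain methyltransferase gene, holds 2 CpGs in its 1000 bp and had 266 to 514 calls per mouse (chr1:179163501-179164500). The saline mice had 88.3%, 85.8% and 95.9%, the OVA mice 88.1%, 94.9% and 92.6%, and the DSE mice 51.0%, 63.9%, 65.7% and 66.6%, with adjusted p-values of 8.9e-72 by the likelihood ratio test and 0.0479 by limma. Lower windows past limma also lay at Gm29514 (67.2% in DSE against 92.6% in OVA, pooled), near Mir6352 in an intron of Epha4, an ephrin receptor gene (69.9% against 93.7%), near Lrrn3 in an intron of Immp2l (61.6% against 82.9%) and near Cpa6 (72.6% against 92.6%). In the Epha4 window the 4 DSE mice lay between 69.5% and 70.6%, and the OVA mice between 88.9% and 96.3%. Slc6a15, an amino acid transporter gene, differed by -30.4 percentage points, with a limma adjusted p of 0.0682. At Slc6a15 the OVA mice had only 22 to 25 calls each.

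In the windows named as higher in DSE, every DSE mouse lay above every OVA mouse, which the choice of those with the largest rises required. Upstream of Pigk, a subunit of the GPI transamidase (chr3:152701001-152702000), the saline mice had 96.2%, 89.8% and 88.5%, the OVA mice 63.6%, 80% and 76.7%, and the DSE mice 95.1%, 93.3%, 94.9% and 96.6%. The rise of 21.6 percentage points over OVA had an adjusted p of 1.4e-10 by the likelihood ratio test and 0.0463 by limma. Near Gja5, a connexin gene of arterial endothelium and atrium, the DSE mice had 94.6% to 97% and the OVA mice 77.3% to 84.6%, with a limma adjusted p of 0.0350. Near Scd1, which encodes a fatty acid desaturase, they had 88.7% to 92.3% and 72.4% to 80%, with 0.0483. The largest rise, 26.2 percentage points near Dram1, an autophagy regulator induced by p53, had a limma adjusted p of 0.219, and the OVA mice at 42.9%, 93.2% and 66.0% were far apart. 4933402C06Rik, Casd1 and Zfp777 rose by 26.1, 20.3 and 18.8 percentage points without passing limma, at adjusted p-values of 0.142, 0.108 and 0.155.

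The number of calls differed between the compared groups in most of these windows. At Dram1 the OVA mice had 35 to 47 calls and the DSE mice 232 to 686, at Pigk 30 to 50 and 134 to 306, at Gja5 22 to 31 and 155 to 267, and at Plbd1 26 to 54 and 71 to 159. Smyd3 was closer, at 272 to 374 and 380 to 514 calls. Over the 189 windows lower in DSE the median per mouse was 59 to 77 calls in OVA and 109 to 140 in DSE mice, and over the 43 higher windows 53 to 64 and 94 to 120. Over all members it was 209 to 235 and 245 to 313. The part of this difference in coverage was not tested. With at least 200 calls in every mouse, 11 members in 7 regions (0.0559%) remained lower in DSE and 0 higher. Shares over all windows at this depth were not computed.

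**Figure D4:**
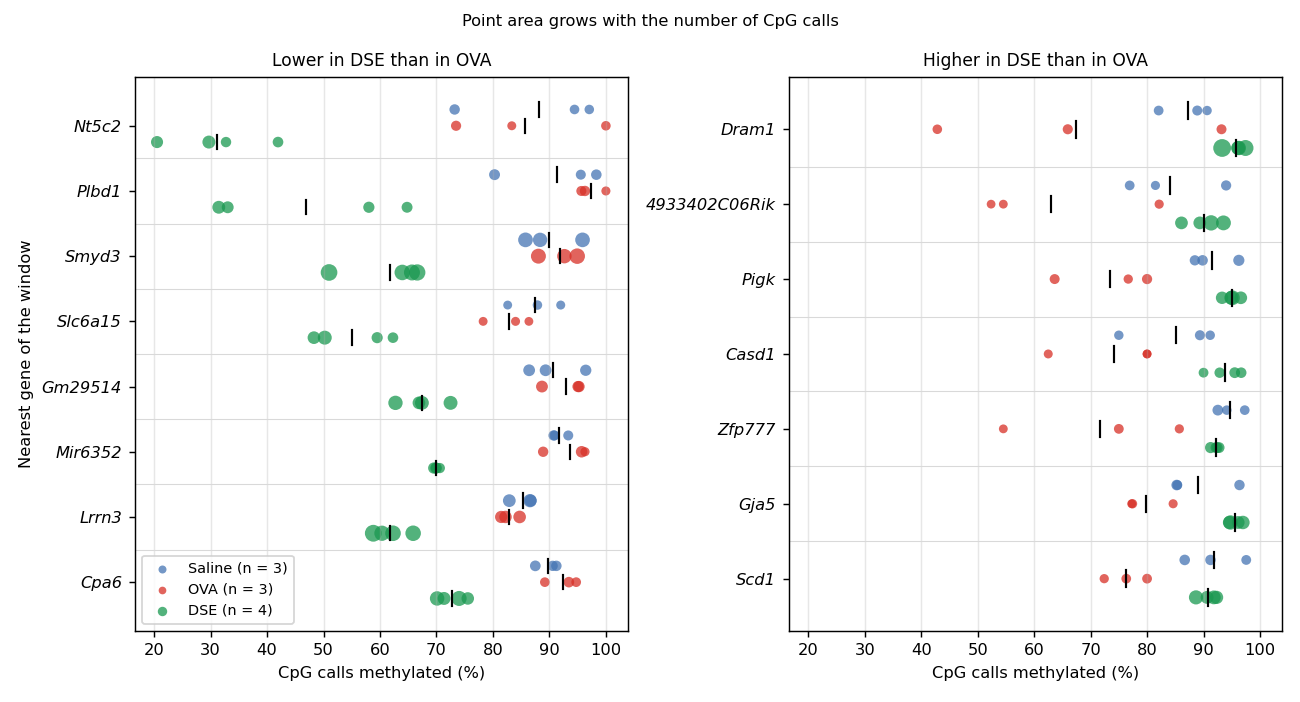
Methylation per mouse (percent of CpG calls methylated) in 8 windows lower and 7 windows higher in DSE than in OVA, with 1 point per mouse, an area that grows with its number of CpG calls and a black line at the group mean; rows carry the gene of the nearest start site. On the left the green DSE points lie apart from the saline and OVA points, as at Smyd3 with 51.0% to 66.6% against 85.8% to 95.9%, and on the right they lie above all OVA points, which spread down to 42.9% at Dram1.

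In the T and NK cell list, 1 of 139 windows was lower in DSE than in OVA, near the T cell costimulatory receptor Cd28, and 1 was higher, near Ctla4, an inhibitory receptor of T cells. In the pan-leukocyte list 3 of 108 were lower, 1 near Arhgap15 and 2 in an exon of Rel, an NF-kappaB subunit. The other lists had 0 in either direction, and 0.439% of all members and 0.725% of all windows tested were lower. Counts this small are no result about the lists. At Rel the DSE mice had 53.3%, 66.7%, 90.7% and 65.6% and the OVA mice 94.4%, 78.3% and 90%, with an adjusted p of 0.0022 by the likelihood ratio test and 0.563 by limma. The 2 Rel windows rest on the same calls. At Cd28 the DSE mice had 76.8%, 81.2%, 93.1% and 83.1% and the OVA mice 94.4%, 93.1% and 93.8%. At Ctla4 the OVA mice ranged from 77.8% to 100% around the DSE mice, at 93.9% to 96.0%.

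In the 519 windows lower in OVA, the levels of the 3 groups stood at 89.0% ± 0.359 in saline (SD, n = 3), 74.7% ± 0.726 in OVA (SD, n = 3) and 76.9% ± 0.776 in DSE mice (SD, n = 4). The DSE mice ranged from 75.9% to 77.6%, above the highest OVA mouse at 75.5% and far below the lowest saline mouse at 88.6%. These windows were chosen for low OVA values, so the small gap of DSE over OVA is given without a test. These levels average the windows equally. On pooled calls the DSE mice had 76.2%, 74.9%, 75.9% and 73.6% and the OVA mice 75.8%, 74.1% and 73.1%, so that the groups overlapped and the separation of DSE from OVA mice rests on the averaging. In the 189 windows lower in DSE than in OVA the saline mice had 89.9% ± 0.899, the OVA mice 91.9% ± 0.224 and the DSE mice 77.1% ± 2.33. The median SD between mice of a group was 2.01 to 2.14 percentage points over all members, and 3.14, 4.96 and 4.24 in saline, OVA and DSE mice over the 519 windows.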

How the data were processed

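Lung DNA of 10 mice was examined by Methyl-seq, with groups taken from the labels (saline, n = 3; OVA, n = 3; DSE, n = 4). The authors captured DNA with the SureSelect Methyl-seq kit. Per the submitters' processing notes they used Cutadapt 1.10, Bismark 0.19.0 on mm10 and methylKit 1.0.0; the published methods name other versions of these tools. The deposited values are unnormalized counts of CpG calls, methylated calls and unmethylated calls per mouse in sliding windows (1000 bp long, a new one every 500 bp). Here, the windows were annotated with 45756 RefSeq transcripts of GRCm38, and windows with at least 20 calls in at least 2 mice per group were tested by a logistic likelihood ratio test on pooled calls (scipy 1.17.1) with Benjamini-Hochberg adjustment over all windows tested. This test treats calls as independent and takes no account of the spread between mice. limma 3.58.1 (R 4.3.3) on M-values (log2 of methylated over unmethylated calls, pseudocount 1) does. The tests were run on simulated calls first. No pair of libraries of a group held the same calls, since their chi-square per member window averaged 1.87 to 2.36. Nothing in the labels ties the mice to cages or litters, so the p-values of limma measure the spread between these mice only. Those of the likelihood ratio test do not measure it. The members and gene lists were chosen with earlier results of these data known. Named windows were the 15 largest falls in OVA without overlap of the mice and 1 per gene, 3 gains, 5 each way in DSE vs. OVA, up to 2 genes per list, the 5 longest losing regions and 3 windows on either side of 85%. Windows in which no mouse had under 200 calls and those past limma in DSE vs. OVA were added after the values had been seen. Some items that these rules select are not reported here.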

Additional observations from a re-analysis of the deposited data

Results flagged for a closer look

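In 4 of the 53 named windows 1 DSE mouse lay outside the other 3, by Dixon's ratio of the gap to the range at its 95% critical value for 4 mice. Chance alone flags about 1 in 20 groups. At Cpt1a that mouse had 85% and the others 64.4% to 65.6%. At Smyd3 it had 51.0% against 63.9% to 66.6%, and at Ikzf2 57.8% against 70.1% to 72.0%. At Gfi1 it was the highest, at 89.8% against 82.5% to 83.8%. Groups of 3 mice were too small for this check.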

How the results depend on the processing

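Counts are given in the order OVA vs. saline lower and higher, DSE vs. OVA lower and higher, DSE vs. saline lower and higher, beside 519, 18, 189, 43, 788 and 4 as reported for 43022 members. Windows chosen at 80% or more in saline gave 1079, 77, 307, 90, 1534 and 42, those at 90% or more (22233 windows) 169, 0, 75, 12, 269 and 0, and those with each saline mouse at 85% or more 274, 0, 89, 18, 418 and 0. Chosen on all 10 mice they gave 80, 87, 93, 41, 126 and 70. Beyond 50 kb (17002 windows) the counts were 187, 5, 79, 11, 296 and 2. With a minimum of 50 calls they were 355, 2, 90, 16, 510 and 2, and with 200 calls in every mouse, chosen after seeing the data (19693 windows), 120, 0, 11, 0, 179 and 0. Windows that do not overlap (21546) gave 271, 8, 86, 25, 398 and 3. Asking for 20 percentage points gave 51, 0, 25, 5, 80 and 0, and asking for 5 gave 1399, 299, 718, 185, 2288 and 176. Calls scaled to the same median coverage raised the DSE vs. OVA gains to 65.

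The F test with a scale factor, which estimates the spread of each window from 6 or 7 mice, called 0 in all 6 counts (unadjusted p under 0.05: 1381, 852, 1653, 413, 2965 and 630). limma called 0 in all 6 at an adjusted p of 0.01 and 0, 0, 14, 4, 446 and 2 at 0.05, with the same 10 percentage points (unadjusted p under 0.05: 2955, 1782, 2994, 1175, 4643 and 1250). Merged windows formed 22708 regions. Pooled calls gave means of 90.1% in saline and 90.2% in OVA in place of 90.4% and 90.1%.

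With each mouse left out in turn, members numbered 42865 to 43534 and the 6 counts 506 to 739, 14 to 42, 166 to 239, 42 to 74, 787 to 1080 and 4 to 11, and the group means were 90.5% to 90.5% in saline, 89.9% to 90.1% in OVA and 89.2% to 89.6% in DSE. OVA gains were 42 and 32 without OVA replicates 1 and 2, and DSE vs. OVA gains 66, 68 and 74 without OVA replicates 1, 2 and 3. DSE vs. saline gains were 9 without saline replicate 1 and 11 without DSE replicate 1. The differences of the named windows, 50 in all, were recomputed under the other tests, thresholds, scaling, weighting, block and left-out mice, and for 21 of them with a minimum of 50 calls. None changed direction, but the F test, limma and the other thresholds reuse the same pooled difference, so direction could not change there. Most of these windows were named for groups without overlap, so leaving out 1 mouse could not turn those. Of the 50, 50 no longer passed under the F test, 50 under limma at 0.01 and 41 under limma at 0.05. At 20 percentage points 19 no longer passed. With a mouse left out, 29 of the differences, up to 7 of 50 for 1 mouse, no longer passed the thresholds. The named windows were not recomputed under the other selections.

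The replicate numbers did not pair the mice, since the deviations of mice with the same number had correlations of -0.0185 to 0.0785, and not every mouse correlated best with its own number. The fit with the replicate block gave 510, 16, 235, 54, 785 and 5. Distances of 5 or 20 kb, the window midpoint, the unweighted saline mean, unweighted differences, and at least 2 CpGs kept every count they bear on within 1.5 times of the reported one. The mirrored selection on OVA gave 412 windows lower in saline beside 519 lower in OVA. It counts the opposite change, so it is no check on the number of losses. The mirrors on DSE were less even, with 202 lower in saline beside 788 and 98 lower in OVA beside 346 in the reverse selection. Depth limits single windows, since 20 calls leave counting errors wider than most differences reported here.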
